A study of Mus musculus with 4 samples.

Results

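The miR-148 and miR-152 family comprises the miRNAs made from 3 mouse hairpins, mir-148a, mir-148b and mir-152, each of which gives a 5p and a 3p mature arm. Its 6 members, mmu-miR-148a-5p, mmu-miR-148a-3p, mmu-miR-148b-5p, mmu-miR-148b-3p, mmu-miR-152-5p and mmu-miR-152-3p, were taken by name from the 1907 mature miRNAs listed. The family was chosen by its measured values, since miR-152 had moved in opposite directions at the transition in the 2 media. All levels and differences of the members are therefore given as a description, with no test. Small RNA-seq had been performed on E14Tg2A cells, a mouse ES cell line of 129/Ola origin, and on epiblast-like aggregates (ELA) made from them. ES serum cells grew on gelatin with 10% fetal calf serum and LIF, a cytokine that sustains self-renewal. ES 2iL cells grew for several passages in serum-free N2/B27 medium with LIF, the MEK inhibitor PD0325901 and the GSK3 inhibitor CHIR99021, conditions that model ground-state pluripotency. ELA serum and ELA 2iL were floating aggregates kept for 2 days in a chemically defined minimal medium, named for the medium of the ES cells they came from, and they stand for the primed, epiblast-like state. The labels name no engineered allele in any group. Each of the 4 groups had 1 library, made from the pooled RNA of 3 experiments, so no value has a replicate error and all intervals cover counting error only.

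A miRNA hairpin is cut into a short duplex. One strand, the guide, is loaded into the RNA-induced silencing complex (RISC) and directs it to mRNAs that pair with the seed, the bases near its 5′ end. The 3p arms are the usual guides of this family, which is known from several tissues for its match in the mRNA of the maintenance DNA methyltransferase Dnmt1. The 5p arms are the usual passenger strands.

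The mature sequences are shown because the seed decides which members can act on the same mRNAs. The seed, bases 2 to 8, is in capitals, and the sequences are those of RefSeq (tables of GRCm38.p6), in which all 6 members were found. The guide arms read as follows.
miR-148a-3p: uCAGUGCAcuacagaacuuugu
miR-148b-3p: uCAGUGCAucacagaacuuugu
miR-152-3p: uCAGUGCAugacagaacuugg

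The seed CAGUGCA was carried by exactly these 3 of the mature miRNAs with a sequence. Outside the seed the guides were nearly alike. Counted from 1 at the 5′ end and without gaps, miR-148a-3p and miR-148b-3p differed by C9U and U10C over 22 positions. From miR-148a-3p to miR-152-3p the differences were C9U, U10G and U20G over 21 positions. From miR-148b-3p to miR-152-3p they were C10G and U20G. A sequencing read of these lengths can thus be told apart by 2 or 3 bases. The mismatches allowed in mapping are not given in the sources used here, and how many reads were assigned to another member was not tested.

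The passenger arms are shown because miR-152 differed from the others there.
miR-148a-5p: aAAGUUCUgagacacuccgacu
miR-148b-5p: gAAGUUCUguuauacacucaggcu
miR-152-5p: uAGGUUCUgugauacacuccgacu

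miR-148a-5p and miR-148b-5p shared the seed AAGUUCU with each other and with no other mature miRNA that had a sequence. Among the same sequences miR-152-5p had the seed AGGUUCU alone. The longest stretch common to miR-148a-5p and miR-152-5p was the last 11 bases, acacuccgacu.

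The hairpins show where both arms lie, in capitals, within RNAs of 99, 97 and 73 bases. Coordinates refer to mm9 (NCBIM37), the build that the authors used, and each hairpin was placed there by an exact match.
mir-148a: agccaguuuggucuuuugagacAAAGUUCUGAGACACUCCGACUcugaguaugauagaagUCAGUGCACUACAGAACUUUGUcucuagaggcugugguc
mir-148b: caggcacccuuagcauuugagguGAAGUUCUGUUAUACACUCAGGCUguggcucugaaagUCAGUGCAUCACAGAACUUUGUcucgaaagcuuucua
mir-152: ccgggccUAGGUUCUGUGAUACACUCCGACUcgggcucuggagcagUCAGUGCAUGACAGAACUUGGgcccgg

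Mir148a lies at chr6:51219811-51219909 on the minus strand, between genes, 13622 bases from the nearest protein-coding gene, Gm9953. Mir148b lies at chr15:103115556-103115652 on the plus strand, in an intron of Copz1. Mir152 lies at chr11:96711707-96711779 on the plus strand, in an intron of Copz2. Copz1 and Copz2 encode paralogous zeta subunits of the COPI vesicle coat, and both hairpins lie on the strand of their host gene. The intronic hairpins overlapped no exon of the 2 Copz1 and 3 Copz2 transcripts annotated across them. Each mature sequence had 1 exact match in the genome, so none of the members had an identical second copy.

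Depth, counted as reads on the listed miRNAs, was 8056984 for ES serum and 2767016 for ES 2iL, against 4309257 for ELA serum and 587363 for ELA 2iL. Levels are given in RPM, reads per 1000000 reads on miRNAs, and 1 read was worth from 0.124 RPM in ES serum to 1.70 RPM in ELA 2iL. A level of 3 reads, the least taken as detected, was 5.11 RPM in ELA 2iL, and all 6 members were above it in every library. The stage labels were checked on marker lists. The primed-state miR-302 and miR-367 guides summed to 5384 RPM for ES serum and 69.8 for ES 2iL, against 34066 for ELA serum and 5751 for ELA 2iL, and all 5 were higher in ELA in both media. The markers of naive and general pluripotency were miR-291a-3p, miR-292a-3p, miR-294-3p and miR-295-3p. They summed to 61648 RPM for ES serum and 142214 for ES 2iL, against 41028 for ELA serum and 109569 for ELA 2iL. In both media 0 of the 4 were higher in ELA, yet the sum of ELA 2iL was above that of ES serum. The sums over markers of other cells follow. Mesenchymal markers summed to 1475 to 4847 RPM, neural ones to 262 to 424 RPM, blood ones to 551 to 2007 RPM with miR-142a-3p at 0, and muscle ones to 0 to 73.2 RPM, while the endothelial and liver markers were listed at 0 throughout. In all, 705 miRNAs were listed at 0 in every library, miR-292a-3p among them, so a listed 0 is not read as absence. The blood sum, nearly all of it miR-142a-5p, was higher in 2iL than in serum at both stages. So was the mesenchymal sum, mostly miR-143-3p, under RPM, but in ELA it turned to 1776 in serum against 1762 in 2iL under TMM and to 1842 against 1771 under DESeq2 size factors. Their part in the results on the family was not tested.

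miR-148a-3p was the main member by far and among the most abundant miRNAs of these cells. Its level was 14843 RPM for ES serum and 26101 for ES 2iL, against 22199 for ELA serum and 27511 for ELA 2iL, and it ranked 11th, 9th, 8th and 8th of the miRNAs of those libraries. In bulk RNA, fewer cells with a miRNA and less of it per cell cannot be told apart. The level was lowest in ES serum and close together in both 2iL libraries. miR-148b-3p measured 2021 RPM for ES serum and 2407 for ES 2iL, against 1812 for ELA serum and 1905 for ELA 2iL. Its 4 libraries spanned a narrow range, at ranks 48 to 55. miR-152-3p measured 24.8 RPM for ES serum (200 reads) and 81.0 for ES 2iL (224 reads), against 62.9 for ELA serum (271 reads) and 35.8 for ELA 2iL (21 reads). It was scarce in all libraries, and its order of libraries was unlike that of the other guides. For ELA 2iL the exact 95% interval of its level ran from 22.1 to 54.7 RPM and overlapped that of ES serum, 21.5 to 28.5 RPM, but not that of ELA serum, 55.6 to 70.8 RPM.

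Among the passenger arms, miR-148a-5p measured 591 RPM for ES serum and 621 for ES 2iL, against 714 for ELA serum and 460 for ELA 2iL. miR-148b-5p measured 189.8 RPM for ES serum and 306.8 for ES 2iL, against 188.7 for ELA serum and 173.7 for ELA 2iL. miR-148a-5p was lowest in ELA 2iL, and miR-148b-5p was highest in ES 2iL with the other libraries close together. miR-152-5p measured 11.0 RPM for ES serum (89 reads) and 173 for ES 2iL (479 reads), against 23.7 for ELA serum (102 reads) and 56.2 for ELA 2iL (33 reads). It was the member that varied most, and both 2iL libraries were above both serum libraries.

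**Figure D1:**
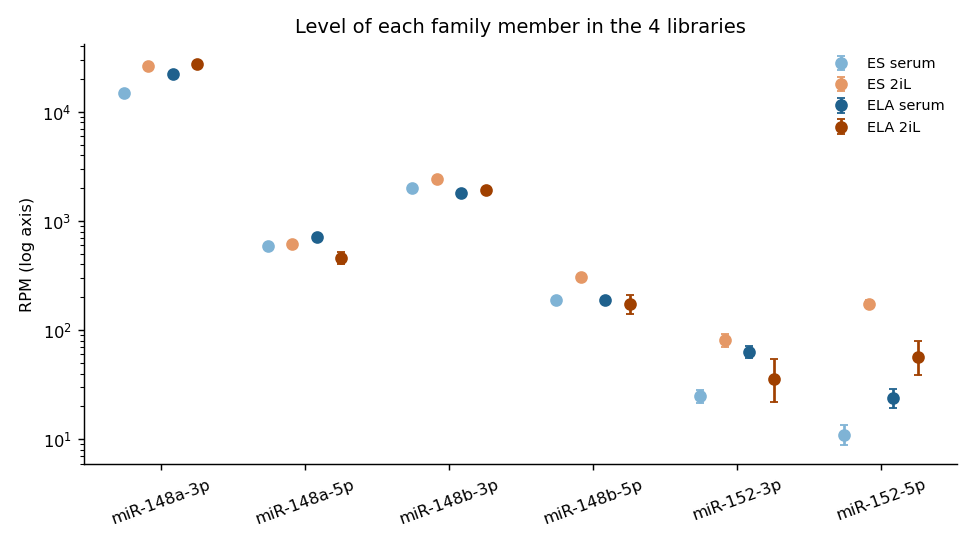
Level of each member in the 4 libraries, in RPM on a log axis. Points are single libraries and bars are exact 95% intervals of the read number (counting error only), hidden where smaller than the point. miR-148a-3p lies between 14843 and 27511 RPM, and both arms of miR-152 lie at or under 173 RPM with the widest spread between libraries.

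Together the guide arms, which share a seed, took 1.69% of the miRNA reads in ES serum and 2.86% in ES 2iL, against 2.41% for ELA serum and 2.95% for ELA 2iL. The sum followed miR-148a-3p, which made up 87.9% of it in ES serum and 91.3% in ES 2iL, against 92.2% for ELA serum and 93.4% for ELA 2iL. miR-148b-3p made up 12.0%, 8.42%, 7.53% and 6.47% in the same order. The share of miR-152-3p was 0.147%, 0.283%, 0.261% and 0.121%. miR-148a-3p thus exceeded miR-152-3p between 322-fold in ES 2iL and 769-fold in ELA 2iL, and the opposite movements of miR-152-3p hardly entered the family's sum. The 5p arms were divided otherwise. miR-152-5p made up 1.39% of the 5p reads of the family in ES serum and 15.7% in ES 2iL, against 2.56% for ELA serum and 8.15% for ELA 2iL.

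The first comparison asked how the family changed at the ES–ELA transition in serum. Differences were taken on log2(RPM + 1), and a miRNA counted as past the threshold at a difference of at least 1 with a mean of at least 5 over the pair of libraries. Of 288 miRNAs compared, 8.33% were higher and 14.6% lower in ELA serum by that measure, with a median difference of 0.08. Of the members, 5 reached the mean of 5, and 1 of these was past the threshold, on the higher side. miR-152-3p went from 24.8 to 62.9 RPM, 2.53-fold higher with an exact 95% counting interval of 2.10 to 3.06. miR-152-5p, which did not reach the mean, went from 11.0 to 23.7 RPM, 2.14-fold higher (1.60 to 2.88). Both arms of miR-152 were thus higher in ELA serum. miR-148a-3p was 1.50-fold (1.48 to 1.51) the level of ES serum and miR-148a-5p 1.21-fold (1.15 to 1.26). miR-148b-3p was slightly lower, at 0.897-fold (0.873 to 0.921), although DESeq2 size factors turned its log2 difference from −0.16 to 0.04. The interval of miR-148b-5p, 0.912 to 1.08, included 1. The guide arms summed were 1.43-fold (1.41 to 1.44) higher.

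The same transition from 2iL cells gave another picture for miR-152. Of 314 miRNAs compared, 15.3% were higher and 25.2% lower in ELA 2iL by the same measure, and the median difference was −0.30. All 6 members reached the mean of 5, and 2 were past the threshold, both on the lower side. miR-152-5p went from 173 to 56.2 RPM, 3.08-fold lower (2.16 to 4.53). miR-152-3p went from 81.0 to 35.8 RPM, 2.26-fold lower (1.45 to 3.73). Relative to the median miRNA these log2 differences were −1.31 and −0.86. That of miR-152-3p was −1.16 under RPM and short of the threshold, at −0.99 and −0.91, under TMM and with totals without the 5 most abundant miRNAs. miR-148a-3p was 1.05-fold (1.04 to 1.07) its level in ES 2iL, and miR-148b-3p was 1.26-fold lower (1.19 to 1.35). Relative to the median miRNA they lay at 0.37 and −0.04, so miR-148b-3p differed about as the median miRNA did. Under the other scalings the log2 difference of miR-148a-3p was 0.19 to 0.32. The passenger arms miR-148a-5p and miR-148b-5p were 1.35-fold (1.19 to 1.54) and 1.77-fold lower (1.44 to 2.19). Relative to the median miRNA they lay at −0.14 and −0.52. The guide arms summed were 1.03-fold (1.01 to 1.05) their ES 2iL level.

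**Figure D2:**
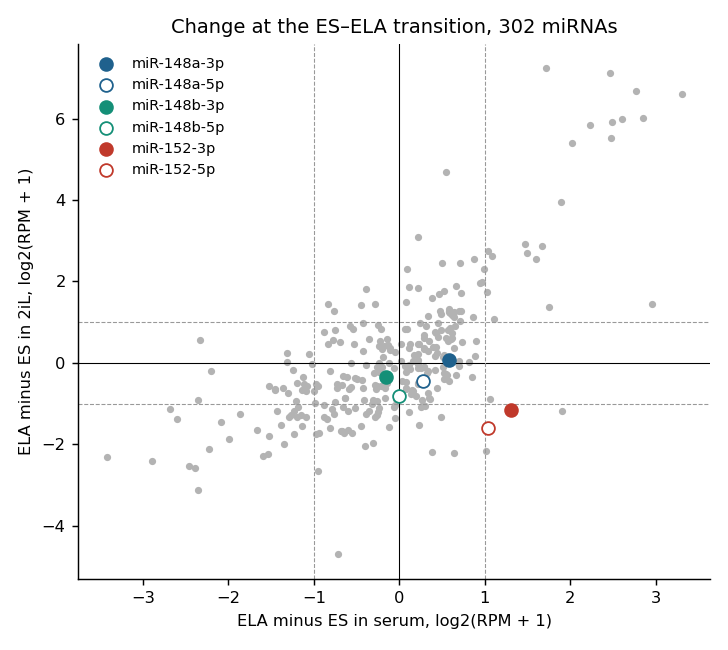
Difference ELA minus ES in log2(RPM + 1) in serum (horizontal axis) and in 2iL (vertical axis) for the 302 miRNAs with a mean of at least 5 over the 4 libraries. Grey points are other miRNAs, filled coloured points the 3p arms and open ones the 5p arms of the family, and dashed lines mark a difference of 1. Both arms of miR-152 lie in the lower right corner, which holds 4 miRNAs in all, and the other members lie near the middle.

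Setting the media side by side, miR-152-3p differed between ELA and ES by 1.31 in serum and by −1.16 in 2iL on the log2(RPM + 1) scale, and miR-152-5p by 1.03 and −1.61. The serum value of miR-152-5p fell short of the threshold, at 0.97, with totals without the 5 most abundant miRNAs and, at 0.84, with a pseudocount of 5. Of the 302 miRNAs with a mean of at least 5 over the 4 libraries, 4 differed by at least 1 upward in serum and downward in 2iL, and 0 the other way round. The mean over 4 libraries is another filter than the mean over a pair, and miR-152-5p met it but not that of the serum pair. Both arms of miR-152 were among the 4, which is the pattern the family was chosen by. The other two, named after their values were seen, were miR-218-5p and miR-138-5p. The remaining members did not cross the threshold in either medium. miR-148a-5p also had opposite signs, 0.27 in serum and −0.43 in 2iL. miR-148a-3p was 0.58 and 0.08, miR-148b-3p −0.16 and −0.34, and miR-148b-5p −0.01 and −0.82.

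The next comparison concerned the medium of the ES cells. Of 310 miRNAs compared, 32.9% were higher and 14.8% lower in ES 2iL than in ES serum by at least 1, with a median difference of 0.50. This excess of higher calls turned under TMM, with 50 higher, 74 lower and a median of −0.07. All 6 members had a log2 difference above 0 under RPM, and 2 were past the threshold. Under each of the 3 other scalings 4 of the 6 were above 0. miR-152-5p went from 11.0 to 173 RPM, 15.7-fold higher (12.5 to 19.9). miR-152-3p went from 24.8 to 81.0 RPM, 3.26-fold higher (2.68 to 3.97). Under TMM these log2 differences of 3.85 and 1.67 fell to 3.30 and 1.10, below their counting intervals. The arms of miR-152 were thus both higher in 2iL but not to the same extent. miR-148a-3p was 1.76-fold (1.74 to 1.77) and miR-148b-5p 1.62-fold (1.48 to 1.76) higher. Their log2 differences of 0.81 and 0.69 fell to 0.24 and 0.12 under TMM. miR-148b-3p was 1.19-fold (1.16 to 1.23) higher, less than the median miRNA, and its direction turned under the 3 other scalings, with log2 differences down to −0.32. The interval of miR-148a-5p, 0.994 to 1.11, included 1, and its log2 difference of 0.07 turned to −0.50 under TMM, −0.33 under DESeq2 size factors and −0.21 with the 5 most abundant left out of the totals.

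Between the ELA libraries the arms of miR-152 parted. Of 302 miRNAs compared, 20.9% were higher and 8.94% lower in ELA 2iL than in ELA serum, with a median difference of 0.35. This too turned with the scaling, to 28 higher and 57 lower with a median of −0.10 under TMM, and 25 higher and 61 lower with −0.14 under DESeq2 size factors. Of the 6 members 1 was past the threshold under RPM, on the higher side. miR-152-5p went from 23.7 to 56.2 RPM, 2.37-fold higher (1.55 to 3.55). miR-152-3p went from 62.9 to 35.8 RPM, 1.76-fold lower (1.13 to 2.89), a log2 difference of −0.80. Under TMM and DESeq2 size factors the members past the threshold were instead 0 higher and 2 lower, with −1.23 and −1.27 for miR-152-3p, −1.07 and −1.12 for miR-148a-5p and 0.79 and 0.74 for miR-152-5p. miR-148a-3p was 1.24-fold (1.22 to 1.26) higher, which lay at −0.04 from the median miRNA and turned to −0.13 under TMM and −0.18 under DESeq2 size factors. miR-148a-5p was 1.55-fold lower (1.37 to 1.76). For miR-148b-3p and miR-148b-5p the intervals under RPM, 0.987 to 1.12 and 0.742 to 1.13, included 1. The log2 difference of miR-148b-3p turned from 0.07 to −0.37 under TMM and −0.41 under DESeq2 size factors. That of miR-148b-5p went from −0.12 to −0.56 and −0.60.

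**Figure D3:**
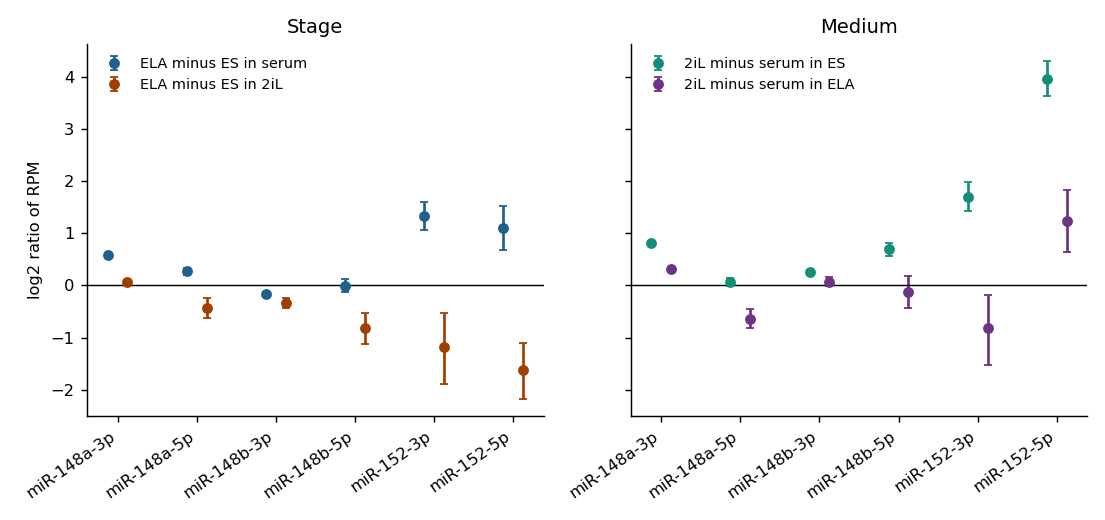
Ratio of RPM between 2 libraries on a log2 scale for each member. The left panel shows ELA against ES in serum and in 2iL, the right panel 2iL against serum in ES and in ELA. Points are single ratios and bars exact 95% intervals of the reads (counting error only). The miR-152 arms lie above 0 in serum and below 0 in 2iL on the left, and on the right miR-152-3p lies below 0 and miR-152-5p above 0 in ELA.

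A single additive fit over the 4 libraries, with stage and medium as terms, gave the background for the whole table. The limma test of 599 miRNAs called 0% for stage and 0% for the medium at an adjusted p of 0.05, while 125 and 176 had an unadjusted p under 0.05. On the reads, edgeR's quasi-likelihood test called 6.51% for stage and 10.7% for the medium. These shares describe the table as a whole. No call is given for the members, since the family was chosen by these values and the fit has no term for a stage change that differs between the media.

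The arm that dominates each hairpin was compared next. It comes from the same reads as the levels by which the family was chosen and is described with no test. In mir-148a the 3p arm made up 96.2% of the reads of both arms in ES serum and 97.7% in ES 2iL, against 96.9% for ELA serum and 98.4% for ELA 2iL. In mir-148b it made up 91.4%, 88.7%, 90.6% and 91.6% in the same order. The guide thus dominated both hairpins in every library. In mir-152 the 3p arm made up 69.2% in ES serum (exact 95% interval 63.5 to 74.5) and 31.9% in ES 2iL (28.4 to 35.4), against 72.7% for ELA serum (67.8 to 77.1) and 38.9% for ELA 2iL (25.9 to 53.1). The 3p arm was the more abundant in both serum libraries and the 5p arm in both 2iL libraries, and only for ELA 2iL, with 54 reads, did the interval include 50%.

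**Figure D4:**
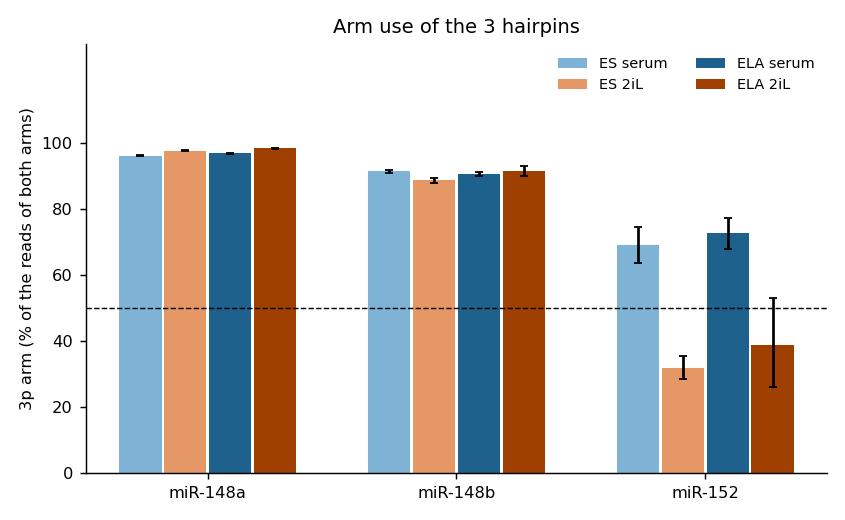
Share of the 3p arm among the reads of both arms of each hairpin, in percent, in the 4 libraries. Bars start at 0, error bars are exact 95% intervals (counting error only) and the dashed line marks 50%. mir-152 is at 69.2% and 72.7% in serum and at 31.9% and 38.9% in 2iL, whereas the other hairpins stay between 88.7% and 98.4%.

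The odds of a mir-152 read coming from the 3p arm were 4.80-fold lower in ES 2iL than in ES serum, with an exact conditional 95% interval of 3.54 to 6.54. Between the ELA libraries they were 4.16-fold lower in 2iL (2.22 to 7.95). Between the stages, the odds ratio of ELA to ES was 1.18 (0.831 to 1.68) in serum and 1.36 (0.730 to 2.48) in 2iL, and both intervals included 1. An arm share compares reads within a library, so the scaling of the libraries does not enter it. Both arms together, the hairpin measured 35.9 RPM for ES serum and 254 for ES 2iL, against 86.6 for ELA serum and 91.9 for ELA 2iL. Summed this way, mir-152 was highest in ES 2iL, and the ELA libraries lay close together under RPM. Unlike an arm share, this sum depends on the scaling, and it was taken under RPM only.

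For the comparison with other hairpins the minimum of reads was chosen after the data had been seen. Of 199 hairpins with at least 20 reads in every library, 7 had one majority arm in both serum libraries and the other in both 2iL libraries, or 3.52%, and mir-152 was 1 of them. The others, named after their values were seen, were mir-145a, mir-409, mir-379, mir-221, mir-434 and mir-700. The difference in the 3p share between the means of the 2iL and of the serum libraries was −35.6 percentage points for mir-152, the 3rd in size of the 199 after mir-145a and mir-409. For mir-148a and mir-148b it was 1.49 and −0.82 points. The median hairpin ranged over 4.07 points across the libraries, against 40.8 for mir-152, 2.95 for mir-148b and 2.19 for mir-148a.

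**Figure D5:**
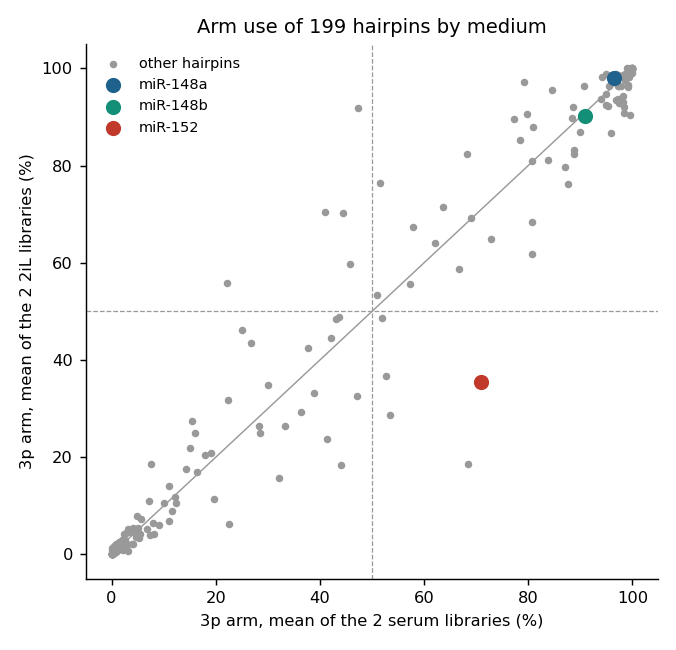
Share of the 3p arm in percent for 199 hairpins, as the mean of both serum libraries (horizontal axis) and of both 2iL libraries (vertical axis). Grey points are other hairpins, the grey line is equality and dashed lines mark 50%. mir-152 lies in the lower right field, below the line by 35.6 points, and mir-148a and mir-148b lie near the line.

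The miRNAs most like each guide were sought among the others whose log2(RPM + 1) averaged 5 or more, by the Euclidean distance of the values centred on their mean over the 4 libraries. With 4 libraries this is a description only. Nearest to miR-148a-3p were miR-301b-3p (distance 0.171), miR-296-3p (0.175) and miR-329-5p (0.200), where the median distance was 1.27. Nearest to miR-148b-3p were miR-487b-3p (0.165), miR-25-3p (0.185) and miR-191-5p (0.197), with a median distance of 1.22. The distances of miR-152-3p ran larger throughout, with a median of 1.76. Its nearest were miR-296-5p (0.495), miR-218-5p (0.534) and miR-140-3p (0.709). miR-218-5p measured 49.6 RPM for ES serum and 250 for ES 2iL, against 188 for ELA serum and 109 for ELA 2iL, the same order of libraries as miR-152-3p. miR-296-5p and miR-140-3p had this order too, and all were picked by their nearness. Within the family the distances were larger than those to the nearest miRNAs. They were 0.719 between miR-148a-3p and miR-148b-3p, 1.02 between miR-148a-3p and miR-152-3p and 1.22 between miR-148b-3p and miR-152-3p. None exceeded the median distance of either guide, and 1.22 equalled that of miR-148b-3p.

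A pair of other families was set beside this one. The guides miR-130a-3p, miR-130b-3p and miR-301a-3p carry the seed AGUGCAA, which is the family's seed moved by 1 base, and miR-301b-3p was counted with them by name. A pair of them is shown.
miR-130a-3p: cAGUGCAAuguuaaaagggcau
miR-301a-3p: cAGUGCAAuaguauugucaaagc

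At the transition, 4 of the 4 miR-130 and miR-301 guides were higher in serum and 0 in 2iL, with median log2 differences of 0.33 and −0.06, against 0.08 and −0.30 over all miRNAs compared. The median in 2iL turned above 0 under the 3 other scalings, at 0.05 to 0.19. The same guides were higher in 2iL than in serum in 4 of 4 cases at either stage, with medians of 0.77 in ES and 0.28 in ELA, against 0.50 and 0.35 over all miRNAs compared. In ES the count was 2 of 4 under TMM. In ELA it was 1 of 4 under TMM and DESeq2 size factors, with medians of −0.16 and −0.21. The miR-29 guides, known for matches in the mRNAs of the de novo DNA methyltransferases, had medians of 0.85 in serum and −0.35 in 2iL at the transition, with 3 and 1 of 3 higher. By medium their medians were 0.60 in ES, with 3 of 3 higher, and −0.20 in ELA, with 0 of 3 higher, beside the same 0.50 and 0.35 over all. The ES value was 0.09 with 2 of 3 higher under TMM, and the ELA value was −0.62 under TMM and −0.66 under DESeq2 size factors. miR-29b-3p and miR-29c-3p had 9 and 10 reads in ELA 2iL, and no likeness to miR-152 is read from these medians.

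The letters of the seed match, TGCACTG on the sense strand, were looked up in annotated 3′ UTRs of genes that the study or textbooks link to chromatin, a choice made after the data had been seen. Of 19915 genes with a 3′ UTR, each taken by its longest one (GENCODE vM1), 12.3% held the 7 letters, and these UTRs were longer, with a median of 2121 bases against 893 overall. In 665 genes a match overlapped that of the miR-130 and miR-301 seed. The matches of 3 genes are shown with their surroundings, the match in capitals.
Dnmt1: acccagagccccacgTGCACTGatgttttt
Kdm2b: tttctgcatcgtaacTGCACTGctttctgg
Smarca4: aggcagtccatgactTGCACTGgggagatg

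Dnmt1 had its match at bases 23 to 29 of a 3′ UTR of 315 bases, at chr9:20711928-20711957 on the minus strand of mm9 for the stretch shown, and it was followed by an A. Of the 1794 UTRs of like length, 0.8 to 1.25 times as long, 3.29% held the letters. Kdm2b, a histone demethylase, had 1 match at bases 1922 to 1928 of 2124 (chr5:123321488-123321517, minus strand), where 20.8% of UTRs of like length held one. The stretch shown for Kdm2b occurred 2 times in the genome. Smarca4, the ATPase of the BAF chromatin remodeling complex, had 1 at bases 717 to 723 of 1262 (chr9:21508114-21508143, plus strand), where 12.5% did, and its match overlapped that of the miR-130 and miR-301 seed. The longest 3′ UTRs of Dnmt3a and Dnmt3b held 0 matches, where 46.9% and 13.0% of UTRs of like length held one. A match is a description of letters, and the small RNA libraries hold no measure of these mRNAs.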

How the data were processed

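Small RNA-seq had been performed on 4 libraries, 1 for each stage (ES or ELA) in each medium (serum or 2iL). Per the submitters' processing notes and the study's methods, the authors used CASAVA 1.8, Trimmomatic and Bowtie against mm9, counted with featureCounts the reads on the mature miRNAs of miRBase 20, and deposited them as RPM, reads per 1000000 reads on listed miRNAs. Tool versions other than that of CASAVA, the mismatches allowed and the treatment of reads with several matches are not given in the sources used here. An RPM is a share of the library, so it also moves with the other miRNAs. Groups follow titles, source names and column names, since the description field of the labels exchanges ES 2iL and ELA serum. The members, lists and comparisons were chosen with earlier results of these data known.

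Divided by what 1 read is worth, 100% of the values in each library came out whole (tolerance 0.02), so whole reads were recovered. 0 columns of per-sample values were left unused. Ratios of RPM carry exact (Clopper-Pearson) 95% intervals conditional on the reads of both libraries, and shares carry exact binomial ones. They cover counting error only, as the reads have no molecular identifiers. Differences used log2(RPM + 1), which understates those of low miRNAs.

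The design named limma for RPM values in place of the study's edgeR. limma 3.58.1 was fitted to log2(RPM + 1) on stage plus medium for 599 miRNAs (10 reads or more in 2 libraries or more). p-values were adjusted by Benjamini-Hochberg and rest on these 4 libraries only. Without replicates, the spread they use is how far the stage change differed between the media, shared across miRNAs. On the recovered reads, edgeR 4.0.16 made 39 calls for stage and 64 for the medium, and DESeq2 1.42.0 called 50 and 74 (R 4.3.3). The scripts were tested on simulated data. By the rule for naming, the miRNAs named are all 6 members, other miRNAs with the seed of a guide arm (0 found), the 3 nearest to each guide arm, and the lists of miR-130 and miR-301 and of miR-29 guides. Marker miRNAs come from fixed lists, and miR-138-5p and the 6 hairpins given beside mir-152 for their majority arm were named after their values were seen. Mature sequences were matched by name for 1623 of the 1907 miRNAs, and hairpin sequences by symbol for the 3 hairpins of the family. Alternatives were TMM, DESeq2 size factors, totals without the 5 most abundant miRNAs, pseudocounts of 0.5 and 5 and no filter.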

Additional observations from a re-analysis of the deposited data

Results flagged for a closer look

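Some members had opposite signs under a contrast in one pair of libraries and in the other. With 1 library per group, these differences were not tested. The ELA minus ES change in 2iL less that in serum, on log2(RPM + 1), was −0.71 for miR-148a-5p, −2.64 for miR-152-5p and −2.46 for miR-152-3p. The 2iL minus serum change in ELA less that in ES was −0.71 for miR-148a-5p, −0.81 for miR-148b-5p and −2.46 for miR-152-3p. For the medium under RPM, the counting intervals of miR-148a-5p in ES and of miR-148b-5p in ELA included a ratio of 1. miR-148a-5p had the same sign at both stages under the 3 other scalings, so it is not shown to have moved both ways. miR-148b-5p kept opposite signs, with 0.12 in ES and −0.56 in ELA under TMM and 0.29 and −0.60 under DESeq2 size factors. Whether it moved both ways was not tested. The values for miR-148a-5p and miR-152-3p are the same in both comparisons, since both are made from the same 4 numbers. The shallowest library, ELA 2iL, enters each of them, with 21 reads of miR-152-3p, 33 of miR-152-5p, 102 of miR-148b-5p and 270 of miR-148a-5p.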

How the results depend on the processing

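The log2 difference of the summed guide arms depended on the scaling. For ELA minus ES in serum it was 0.54 under TMM, 0.71 under DESeq2 size factors and 0.44 with totals without the 5 most abundant miRNAs, and in 2iL 0.21, 0.16 and 0.29. For 2iL minus serum it was 0.19, 0.36 and 0.48 in ES, and −0.15, −0.19 and 0.33 in ELA, where the sign turned under TMM and DESeq2 size factors. A change of pseudocount cannot turn a sign. Of the 72 values of members under the 3 other scalings, 13 had another sign than the value given, and these belonged to miR-148a-3p, miR-148a-5p, miR-148b-3p and miR-148b-5p. Of the 120 values under these scalings and the other pseudocounts, 41 moved out of their counting interval. Without the filter on the mean, 185, 445, 382 and 339 miRNAs passed the fold threshold in the order of the comparisons above. The share of calls that were higher moved with the scaling. At the transition it was 36.4% in serum against 50.7% under DESeq2 size factors, and 37.8% in 2iL against 53.3% when the 5 most abundant were left out of the totals. By medium it was 68.9% in ES against 40.3% under TMM, and 70.0% in ELA against 29.1% under DESeq2 size factors. In the additive fit, limma with 0 calls gave 28 for stage and 55 for the medium under TMM, 99 and 130 without the filter and 9 and 38 with a pseudocount of 5, against 39 and 64 by edgeR and 50 and 74 by DESeq2. The cause was not tested. With a hairpin minimum of 10 or 50 reads, chosen after the data were seen, 8 of 233 and 5 of 161 hairpins changed majority arm by medium, mir-152 among them. No paired analysis was possible because the labels carry no replicate numbers, beyond the additive fit itself, which compares the stages within each medium. With 1 library per group no library could be left out. Depth limits miR-152 in ELA 2iL most, with 54 reads of both arms.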
